A study of Mus musculus with 6 samples.

Results

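The 3 chains of complement component C1q, C1qa, C1qb and C1qc, together with C3, Cfb and Cfp, were followed in bone marrow-derived macrophages with and without a knockout of Dhps. The product of that gene, deoxyhypusine synthase, begins the hypusine modification of translation factor eIF5A. These 6 of the 10551 genes of the deposited count table were chosen by gene name as complement components that macrophages make, at a time when the difference between the groups was already known, including lower C1qa and C1qc in the knockout. Their differences between the groups are therefore given as a description. All 6 had a row in the table and all 6 passed the filter on low counts.

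Complement is a cascade of plasma and tissue proteins that tags targets for phagocytosis and can lyse them. C1q recognises antibody on a surface, dying cells and other ligands, and starts the classical pathway. C3 is the protein on which all activation routes converge, factor B joins its fragment to form the alternative pathway convertase, and properdin stabilises that convertase. The liver makes most plasma complement, whereas macrophages are a main source of C1q, and C1q from macrophages is known for its part in the clearance of dying cells. Properdin is made by macrophages and other leukocytes and is stored in neutrophil granules.

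The 6 libraries, each sequenced on an Ion Proton instrument, came from C57BL/6J mice. The 3 control libraries have the genotype label control, without further detail on alleles. The 3 knockout libraries carry a macrophage-specific Dhps knockout, named Dhps_delta_Myel in the labels. The sources used here name neither a Cre driver nor an age, a sex, a growth factor or a stimulus, and leave unsaid whether replicate libraries represent separate animals. P-values therefore rest on the spread between these libraries, which may be technical and which edgeR moderates across genes. Total counts ranged from 11648710 to 16224818 per library. Levels are in CPM, counts relative to the library total, scaled by the trimmed mean of M values, called TMM, and fold changes are knockout relative to control. Dhps transcript itself measured 24.1, 20.9 and 23.4 CPM in the controls and 13.2, 13.6 and 18.3 CPM in the knockouts, without overlap. The means were 22.8 ± 1.67 and 15.03 ± 2.86 CPM (SD, n = 3), a difference that did not pass edgeR's quasi-likelihood test over all genes (adjusted p = 0.214). All 10 macrophage markers checked had a row, each with a level of at least 200.2 CPM averaged over the groups.

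The C1q genes lie side by side on the minus strand of chromosome 4 (mm10), C1qb at bases 136880145 to 136886177, C1qc at 136889802 to 136892914 and C1qa at 136895916 to 136898844. Gaps of 3624 and 3001 bases separate them, and each has 3 exons. C3 (57203967 to 57228136, 41 exons) and Cfb (34856374 to 34862514, 18 exon intervals) are both on chromosome 17, and Cfp (20925535 to 20931524, 9 exons) is on chromosome X. For 5 of the 6, no exon overlaps one of another annotated gene. The exception was Cfb, with 2246 of its 2747 exon bases also annotated to Gm20547 on the same strand. Reads from that part cannot be assigned to 1 of these 2 models by position.

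Upstream sequence is shown for the neighbours C1qb and C1qc, whose levels were lower together, and for C3, whose groups overlapped. RefSeq windows of GRCm38.p6, the assembly also called mm10, were matched for 4 of the 6 genes, namely C1qb, C1qc, C3 and Cfp. Each line gives the 250 bases before the annotated start, 5′ to 3′ on the minus strand, from chr4:136886201-136886450, chr4:136892915-136893164 and chr17:57228137-57228386. The RefSeq start of C1qb lies 23 bases upstream of the one in the count table, and those of C1qc and C3 coincide with it. Capitals mark matches to any of the motifs named in the next paragraph, on either strand.
C1qb: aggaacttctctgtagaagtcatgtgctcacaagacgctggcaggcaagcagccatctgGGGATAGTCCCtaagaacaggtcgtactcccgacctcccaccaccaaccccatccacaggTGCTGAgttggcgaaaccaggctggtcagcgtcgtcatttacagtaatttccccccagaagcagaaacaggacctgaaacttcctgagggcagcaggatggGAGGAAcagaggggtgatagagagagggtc
C1qc: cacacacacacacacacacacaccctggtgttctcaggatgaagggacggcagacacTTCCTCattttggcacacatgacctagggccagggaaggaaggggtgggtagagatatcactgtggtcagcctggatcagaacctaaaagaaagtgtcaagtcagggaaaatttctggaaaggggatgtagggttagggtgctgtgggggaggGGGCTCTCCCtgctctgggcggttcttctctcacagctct
C3: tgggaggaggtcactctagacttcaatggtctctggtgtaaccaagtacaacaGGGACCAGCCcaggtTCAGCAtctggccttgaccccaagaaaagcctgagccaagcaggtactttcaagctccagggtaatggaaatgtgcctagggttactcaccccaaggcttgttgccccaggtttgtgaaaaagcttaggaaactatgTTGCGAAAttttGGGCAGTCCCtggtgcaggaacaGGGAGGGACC

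Of 8 motifs searched on both strands of the 300-base windows (250 before and 50 after the start), the core of the myeloid factor PU.1, GAGGAA, was found in C1qb, C1qc and Cfp. It is also in 28.3% of all 32851 windows. In C1qb it began at -30 from the start and in C1qc at -193, whereas both matches in Cfp lay after the start. The NF-kB pattern, GGGA and CC with any 4 bases between, was in C1qb, C1qc and C3 and in 20.7% of windows. In C1qb it matched on both strands in 2 overlapping places, at -191 and -190, in C1qc at -40, and in C3 at -197, -33 and -10. The core of the MAF recognition element, TGCTGA, was in C1qb at -131 and in C3 at -182 (19.5% of windows). The C/EBP pattern TTGCNNAA was in C3 at -45 (10.8%), and TATAAA was in C3 at 15 bases after the start (13.6%). The interferon pattern, GAAA followed by any 2 bases and a further GAAA (3.44% of windows), the STAT pattern TTCNNNGAA (8.30%) and the AP-1 pattern TGANTCA (7.81%) were in none of the 4 windows. Among the 10331 windows of genes in the count table the shares were 27.5% for PU.1, 26.7% for NF-kB, 15.2% for MAF, 8.55% for C/EBP, 6.78% for TATAAA, 3.36% for the interferon pattern, 6.97% for STAT and 5.17% for AP-1. A match is only a run of letters and says nothing of binding. These windows leave out distal enhancers.

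All 3 C1q genes were lower in every knockout library than in every control library. C1qa, the A chain, was at 241, 236 and 231 CPM in control libraries 1, 2 and 3 and at 192, 197 and 192 CPM in the knockout libraries. The groups did not overlap, and the knockout mean was 82.2% of control (log2 fold change -0.28, SE 0.081, 95% interval -0.46 to -0.11). C1qb, the B chain, measured 1611, 1527 and 1657 CPM in the controls and 1218, 1447 and 1363 CPM in the knockouts. Its groups did not overlap either, though knockout library 2 came within 80.3 CPM of the lowest control, and the knockout mean was 84.0% of control (log2 fold change -0.25, SE 0.089, 95% interval -0.44 to -0.06). C1qc, the C chain, measured 643, 655 and 698 CPM in the controls and 504, 584 and 501 CPM in the knockouts. Here too every knockout library was below every control library, with the mean at 79.6% of control (log2 fold change -0.33, SE 0.089, 95% interval -0.52 to -0.14). In bulk samples such as these, fewer cells of a type and less RNA per cell cannot be told apart.

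C3, Cfb and Cfp had overlapping groups. C3 measured 693, 775 and 913 CPM in the controls and 594, 796 and 832 CPM in the knockouts. The highest and the lowest C3 values were control library 3 and knockout library 1, with the other libraries mixed between them (log2 fold change -0.10, SE 0.12, 95% interval -0.36 to 0.16). Cfb, factor B, measured 115, 125 and 154 CPM in the controls and 105, 121 and 138 CPM in the knockouts. Its groups were as mixed as those of C3, with the same libraries at both ends (log2 fold change -0.11, SE 0.12, 95% interval -0.36 to 0.14). Cfp, properdin, measured 607, 518 and 594 CPM in the controls and 441, 591 and 525 CPM in the knockouts. Knockout library 1 was the lowest for Cfp, while knockout library 2 was level with the upper controls (log2 fold change -0.14, SE 0.11, 95% interval -0.37 to 0.08). The direction of C3 and Cfb rested on single libraries. Without control library 3 their log2 fold changes were 0.01 and 0.02, and C3 was at 0.04 without knockout library 1. For Cfp the value was -0.03 without knockout library 1. The C1q genes kept their sign with any 1 library left out, between -0.30 and -0.27 for C1qa, -0.31 and -0.18 for C1qb, and -0.40 and -0.29 for C1qc.

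**Figure D1:**
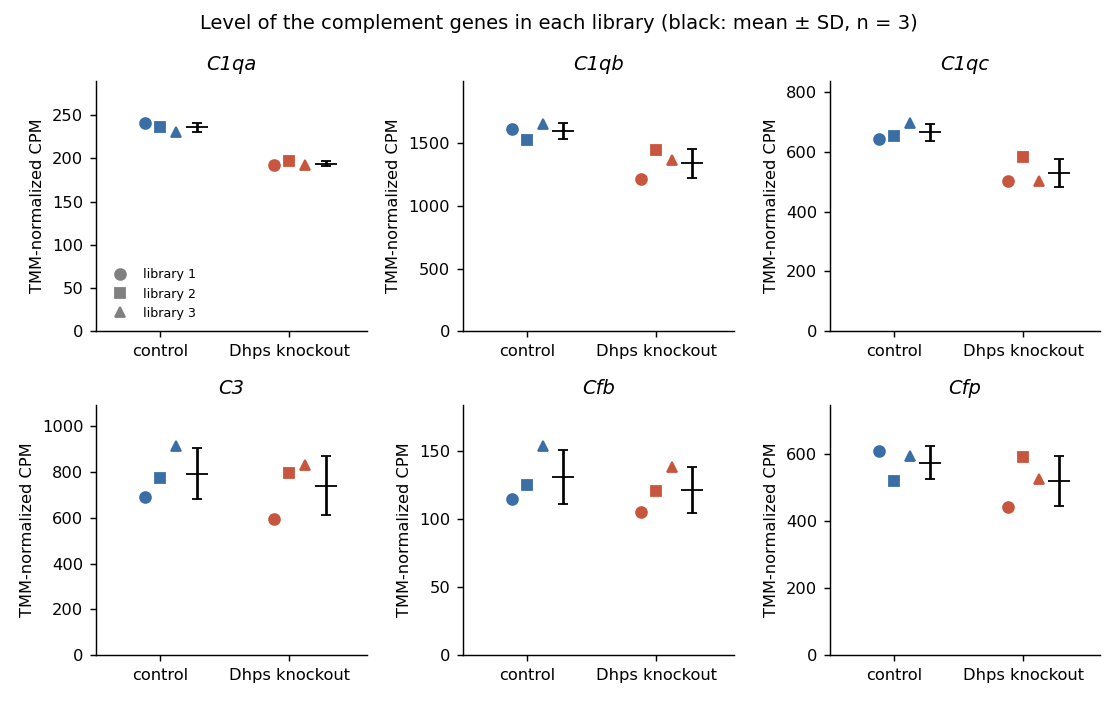
TMM-normalized CPM (vertical axes, from 0) of each gene in 3 control and 3 Dhps knockout libraries (marker shape gives the library number, black the mean ± SD). The groups are apart for C1qa, C1qb and C1qc and overlap for C3, Cfb and Cfp.

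None of the 6 genes was called by edgeR at an adjusted p under 0.05, where 11 of 10551 genes were (0.104%). DESeq2 and limma-voom called 0 of the 6 as well (0.209% and 0.0758% of all genes). At an unadjusted p under 0.05, the 3 C1q genes and none of the other 3 were lower, against 2.64% of all genes lower and 6.48% in either direction. Genes with every knockout library below every control library made up 5.45% of the table. As the 6 genes were picked with this comparison in view, these shares are given only beside the counts. All 6 log2 fold changes were below 0, with a median of -0.20, where 51.3% of all genes were below 0 and their median was -0.0044.

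**Figure D2:**
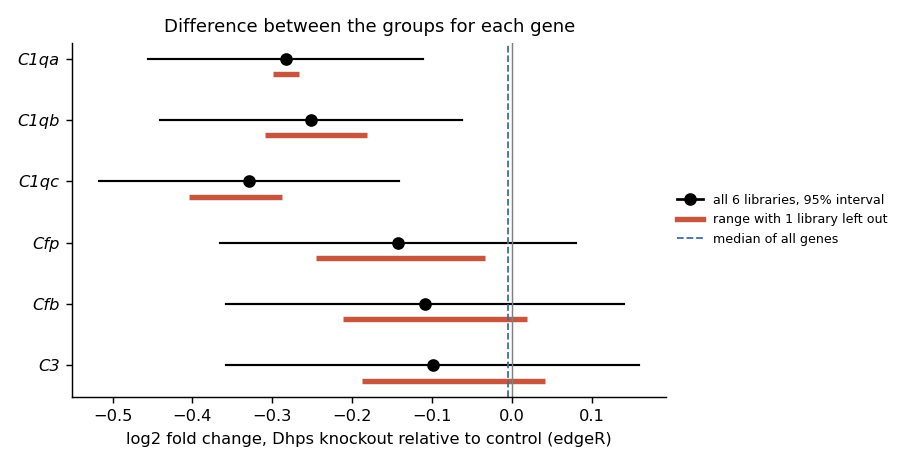
Log2 fold change of each gene, knockout relative to control (horizontal axis), with its 95% interval from edgeR (black), the range with 1 library left out (red), and the median of all genes (dashed). The intervals of the 3 C1q genes lie below 0, and those of Cfp, Cfb and C3 reach above it.

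Levels of different genes were compared per kilobase of exon, using the lengths in the table. In control libraries C1qb was at 1505 ± 61.9 CPM per kilobase, C1qc at 631 ± 27.2, Cfp at 376 ± 31.8, C1qa at 218 ± 4.87, C3 at 154 ± 21.6 and Cfb at 47.8 ± 7.31 (SD, n = 3). In knockout libraries the same order held, from 1264 ± 109 for C1qb through 502 ± 44.4 for C1qc, 340.5 ± 49.3 for Cfp, 179 ± 2.71 for C1qa and 144 ± 25.01 for C3 to 44.2 ± 6.09 for Cfb. Each gene's library values were apart from those of its neighbours in the order, within each group. Among all 10551 genes, C1qb ranked 32nd per kilobase in control libraries, C1qc 96th, Cfp 182nd, C1qa 329th, C3 469th and Cfb 1334th. C1q protein is built from equal numbers of its 3 chains, whereas their transcripts were unequal. Per kilobase, C1qb was 6.90 ± 0.370 times C1qa in control and 7.05 ± 0.526 times in knockout libraries, and C1qc was 2.90 ± 0.188 and 2.80 ± 0.204 times C1qa (SD, n = 3). The values of both ratios overlapped between the groups. Read coverage along the genes was not used here, and uneven coverage would alter levels per kilobase.

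**Figure D3:**
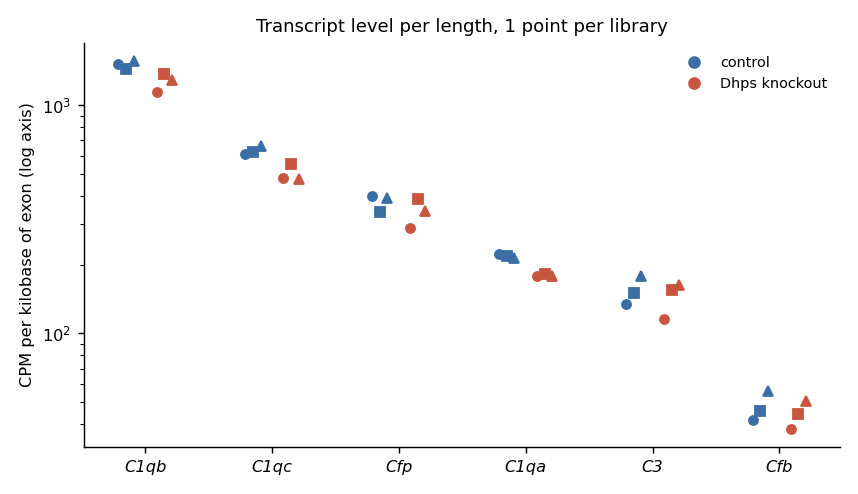
CPM per kilobase of exon on a log axis for each gene, 1 point per library, ordered by the control mean. C1qb stands highest and Cfb lowest in both groups, and within a group no gene's library values reach those of the next gene in the order.

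The 3 C1q transcripts added up to 2495, 2418 and 2585 CPM in the controls and 1914, 2228 and 2057 CPM in the knockouts. The knockout mean was 82.7% of the control mean. As unscaled shares of the deposited counts, the means were 0.248% and 0.208%. Other macrophage transcripts were set beside this sum. Of the 10 macrophage markers, Lyz2 alone was called, and it fell (log2 fold change -1.04, edgeR adjusted p = 7.2e-05). The 9 others together were at 7236, 6875 and 7411 CPM in the controls and 6378, 7423 and 6934 CPM in the knockouts, with knockout library 1 lowest, as it was for 5 of the 6 complement genes. Among these 9, Fcgr1 (log2 fold change -0.33) and Adgre1 (-0.18) were also lower in every knockout library than in every control library. The rest overlapped between the groups. Of all 10 log2 fold changes, 7 were below 0 and 3 above. As a share of those 9 markers, C1q was at 34.5%, 35.2% and 34.9% in control and 30.0%, 30.0% and 29.7% in knockout libraries. The share varied less within groups (34.8% ± 0.341 and 29.9% ± 0.200, SD, n = 3) than the sum itself did. This ratio was taken up after the levels had been seen.

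**Figure D4:**
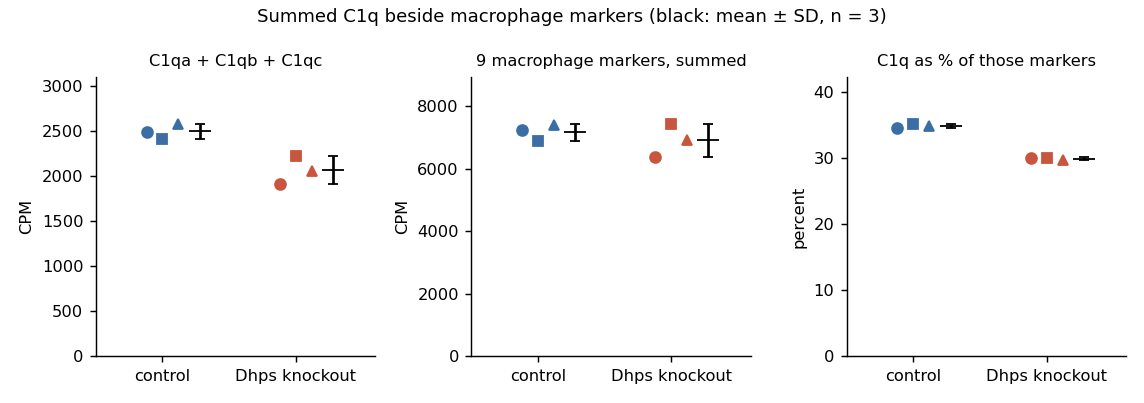
Summed CPM of C1qa, C1qb and C1qc (left), summed CPM of 9 macrophage markers without Lyz2 (middle) and C1q as a percent of those markers (right), by library and group, with the mean ± SD in black. The marker sums overlap between groups, and the C1q share is 34.5% to 35.2% in control and 29.7% to 30.0% in knockout libraries.

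Some markers of other cells were called as well. Over all genes, edgeR called 0.104%. An unadjusted p under 0.05 was reached by 6.48% of all genes in either direction, and by 2.64% as lower. Neutrophil and precursor markers had 15 of 19 members measured, of which 5 were called higher by edgeR in the knockout and 0 lower, and their summed level was 980.0 to 1252 CPM in the controls and 1509 to 1765 CPM in the knockouts. The largest part of that sum was Mmp9 (531 and 659 CPM), which was not called and whose groups overlapped. Of the 15 log2 fold changes, 14 were above 0 (median 0.87). Cfp, whose protein neutrophils store, had a knockout mean of 90.6% of control. The 11 measured monocyte markers summed to 871 to 1078 CPM in the controls and 815 to 1063 CPM in the knockouts, with 0 called in either direction and 5 higher at an unadjusted p under 0.05. Most of that sum was Fn1 (721 CPM in the controls and 654 CPM in the knockouts) and Vcan (180 and 198 CPM). Of the 11 log2 fold changes, 8 were above 0 (median 0.32). The 6 measured stromal markers, 2 of which were called higher by edgeR and DESeq2 but 0 by limma-voom, summed to 7.84 to 12.3 CPM in the controls and 13.1 to 20.3 CPM in the knockouts. The 2 called, Col1a2 and Sparc, were under 1 CPM in every control library. Every gene of the table exceeds 1 CPM in at least 3 libraries. Both therefore entered it only through the knockout libraries, and no weight is placed on their calls. The 5 measured dendritic cell markers were at 247 to 344 CPM in the controls and 348 to 355 CPM in the knockouts, with 0 called, and with 2 higher and 1 lower at an unadjusted p under 0.05. Most of that sum was Itgax (255 CPM in the controls and 313 CPM in the knockouts). The 1 lower was Batf3 (33.1 and 27.3 CPM). Mast cell and basophil markers (5 measured) were at 14.3 to 18.5 and 18.8 to 27.2 CPM, with 0 called, and with 2 higher and 0 lower at an unadjusted p under 0.05. Those 2, Mcpt8 and Prss34, were also under 1 CPM in every control library and entered the table only through the knockouts. Megakaryocyte and platelet markers (7 measured) had 0 called, and 5 were higher and 1 lower at an unadjusted p under 0.05. Among those higher, Tubb1 and Gp9 were under 1 CPM in every control library, so the same limit holds for them. The sum of the 7 markers, 1498 to 1797 and 1271 to 1398 CPM, was nearly all Pf4 (1517 CPM in the controls and 1245 CPM in the knockouts). By contrast, 5 of the 7 log2 fold changes were above 0 (median 0.77). In the lists with 0 called, DESeq2 and limma-voom called 0 as well. The part of these cells in the C1q difference was not tested.

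Pairs of the 6 genes were set side by side over the 6 libraries, which share depth and scaling, so that each Pearson r of log2 CPM is a description. Over all libraries C3 and Cfb had the highest r of any pair, 0.94, and 0.94 after removing the group means. Their ratio per kilobase was 3.24 ± 0.0711 in control and 3.25 ± 0.248 in knockout libraries. C1qb and C1qc had r = 0.93, and 0.72 within groups. C1qa had r = 0.86 with C1qb and 0.90 with C1qc, but 0.28 and 0.15 within groups, where it hardly varied (coefficient of variation 2.23% in control and 1.51% in knockout libraries). Cfp was nearer to C1qb, with r = 0.85 and 0.97 within groups, than to C3 (0.62 and 0.59).

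Likeness to the mean of the C1q genes over the 6 libraries was ranked by Pearson r. As the C1q genes were lower in every knockout library, this r also reflects the difference between the groups. It covered 8639 genes whose mean log2 CPM reached 2 or more. The first 10, with genes known only by a Gm number or a Rik symbol left out, were Fam20c (0.99), Armc5 (0.98), Hacd3 (0.97), Ldhb (0.97), Ruvbl2 (0.97), Exoc4 (0.96), Rrn3 (0.96), Lyz2 (0.96), Zfyve28 (0.96) and Card9 (0.96). Fam20c, a kinase of the secretory pathway, measured 989 ± 26.9 CPM in the controls and 889 ± 31.3 CPM in the knockouts (log2 fold change -0.15). Card9, an adaptor downstream of receptors for fungal sugars, was at 12.5 ± 0.425 and 10.4 ± 0.728 CPM (-0.26). Each of these 10 was lower in every knockout library than in every control library, and Lyz2 was the only one called. After removing the group means its r was 0.60, the lowest of the 10, where the highest was 0.94 (Ruvbl2). Over all libraries, 65 genes had an r above 0.9. By the same measure Cfp came 545th (r = 0.71), C3 1801st (0.45) and Cfb 2010th (0.41). After removing the group means, r was 0.90 for Cfp, between Exoc4 (0.88) and Fam20c (0.93) of the first 10. For C3 and Cfb it was then 0.62 and 0.38. The nearest genes of the table on both sides of the C1q cluster, which are not complement genes, were not called. They had log2 fold changes of -0.13 (Kdm1a), -0.58 (Ephb2), -0.11 (Zbtb40) and -0.02 (Cdc42). Ephb2 was near the floor of the table, at 1.63 CPM in the controls and 1.10 CPM in the knockouts, with an SE of 0.35.

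The rest of the complement system was read from lists by role. Beside their counts, 6.48% of all genes had an unadjusted p under 0.05 in either direction. Of 17 classical and lectin pathway components other than C1q, 6 were measured, 0 were called in either direction, and all 6 log2 fold changes were above 0 (0.06 to 0.92, median 0.15). C1rl, a protease related to C1r, had the smallest p, at 5.96 ± 1.14 CPM in the controls and 8.87 ± 1.06 CPM in the knockouts (log2 fold change 0.56, edgeR adjusted p = 0.542). It was the single member at an unadjusted p under 0.05. C1ra, which encodes a protease that C1q carries, measured 13.1 ± 0.776 CPM in the controls and 13.7 ± 1.10 CPM in the knockouts, and its partner C1s1 at 3.28 ± 0.372 and 3.46 ± 1.28 CPM. Per kilobase both were low in control libraries, at 4.75 and 1.10 CPM, beside 218 for C1qa. The scavenger collectin Colec12 (0.22) and C2 (0.92, at 0.852 CPM in control libraries) came next to C1rl by p. Of 8 alternative and terminal pathway genes, C5 to C9 and factor D among them, 0 had a row in the table used here, in which every gene exceeds 1 CPM in at least 3 libraries.

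Of 18 complement regulators 6 were measured, with 0 called, 1 higher at an unadjusted p under 0.05, and a median log2 fold change of 0.05. That one was Clu, which encodes clusterin, an inhibitor of the membrane attack complex, at 1.81 ± 0.0628 CPM in the controls and 3.25 ± 0.500 CPM in the knockouts (log2 fold change 0.85, edgeR adjusted p = 0.509). Other members with small p were Cd59a (-0.47), a membrane inhibitor of the same complex, and Cd55 (0.78), which speeds the decay of C3 convertases. Both had overlapping groups, and Cd55 was near the floor of the table, at 0.924 CPM in the controls with an SE of 0.40.

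Complement receptors and receptors that bind C1q had 13 of 16 members measured and 0 called, with log2 fold changes between -0.21 and 0.29 and a median of 0.03. Itgax, the alpha chain of complement receptor CR4, measured 255 ± 45.8 CPM in the controls and 313 ± 5.76 CPM in the knockouts (log2 fold change 0.29, edgeR adjusted p = 0.627). Cd93, once described as a C1q receptor, was at 372 ± 36.5 and 322 ± 14.9 CPM (-0.21, edgeR adjusted p = 0.739). These were the 2 members at an unadjusted p under 0.05, in opposite directions. C1qbp (0.24) and the anaphylatoxin receptor C5ar1 (0.13) followed by p. Of 26 other genes with a C1q-like domain, 7 were measured and 0 called (median -0.14), with Mmrn1 (0.95) higher and Emilin2 (-0.25) lower at an unadjusted p under 0.05. C1qtnf1 (-0.60) and Fam132a (-0.18), both in the C1q and TNF related family, came after them.

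All 19 transcription factors with reported links to C1q or C3 genes were measured, with 0 called and 0 at an unadjusted p under 0.05 (log2 fold changes -0.32 to 0.30, median -0.01). Those with the smallest p were Cebpd (-0.31), Ppard (0.30), Cebpa (0.29) and Maf (0.15). Nr1h3, which encodes the oxysterol receptor LXR alpha, averaged 25.8 ± 2.99 CPM in the controls and 23.3 ± 2.09 CPM in the knockouts (-0.15). Of 23 genes of mature and efferocytic macrophages, all were measured and 0 called by edgeR, with a median log2 fold change of -0.02 and with 2 higher and 1 lower at an unadjusted p under 0.05. Cd163, a scavenger receptor, had the smallest p (2.06, edgeR adjusted p = 0.142, from 0.824 CPM in control libraries), and DESeq2 called it. That was the single call by DESeq2 or limma-voom in any of the lists by role. Fcgr1, the high-affinity IgG receptor, was lower in every knockout library, at 223 ± 15.3 CPM in the controls and 177 ± 27.8 CPM in the knockouts (-0.33, edgeR adjusted p = 0.503). The groups were barely apart, with knockout library 3 at 205.1 CPM and control library 2 at 206.4 CPM. Of all genes, 5.45% had every knockout library below every control library. Hmox1 (0.21) and Adgre1 (-0.18) came next.

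**Figure D5:**
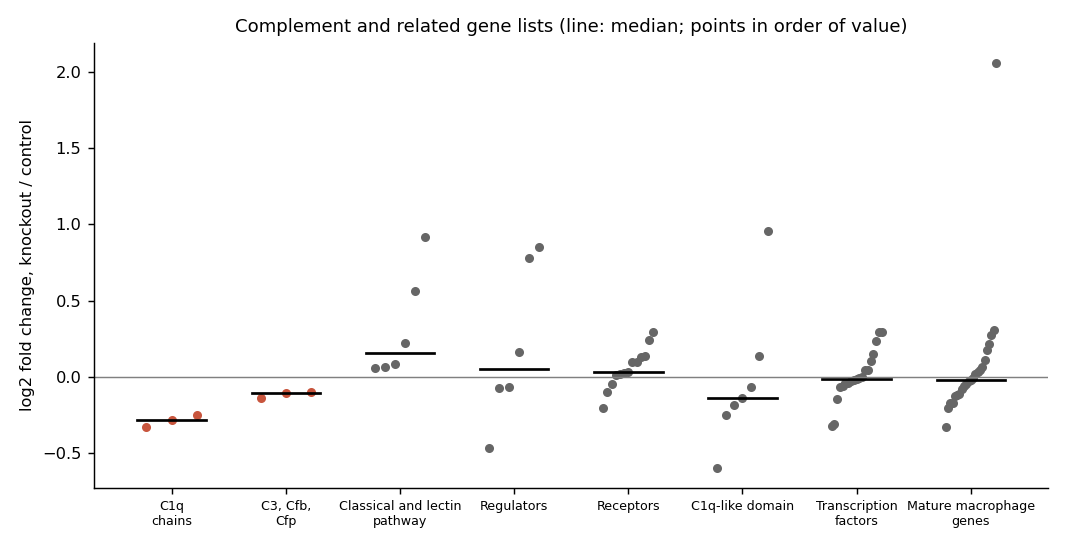
Log2 fold change, knockout relative to control (vertical axis), of each gene in the C1q group, the other 3 chosen genes and 6 lists (1 point per gene, line at the median). The 3 C1q genes lie between -0.33 and -0.25, and the medians of the receptor, transcription factor and mature macrophage lists lie within 0.05 of 0.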

How the data were processed

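RNA was sequenced from 3 control and 3 Dhps knockout macrophage libraries. The authors deposited raw counts per gene, not normalized, with gene lengths in bases and mm10 coordinates. Subread 1.5.0, featureCounts, STAR 2.4.2a and edgeR appear in the submitters' processing notes, without role or order. The annotation and the use of strand are not given in the sources used here. Every per-sample column was used (0 left out).

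Counts were TMM-scaled and tested across all 10551 genes by edgeR 4.0.16 in R 4.3.3 (quasi-likelihood, two-sided, with only genotype in the model). Filtering with filterByExpr at a minimum count of 10 removed 0 genes. P-values were Benjamini-Hochberg adjusted over all genes, and 0.05 was the threshold for a call. The standard error is the log2 fold change divided by the square root of F. It and the 95% interval use spread moderated across genes, not each gene's own spread alone. The SD of log2 CPM within groups was 0.027 for C1qa and 0.234 for C3, beside standard errors of 0.081 and 0.122. Log2 CPM used a prior count of 2. The fit was tested on simulated data, with the same dispersion for every gene and changes larger than those of the C1q genes. That test does not cover differences as small as theirs. Total counts of 11648710 to 16224818, and at least 1527 reads per library for each complement gene, stand behind the levels. For C1qa the spread between libraries was close to counting error alone, and for the other 5 genes it was wider.

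The genes, lists and tests were chosen with earlier results of these data known. Named besides the 6 genes and Dhps were the 10 genes most like C1q, the 4 smallest p-values of each list (fewer where fewer were measured), called genes and the neighbours of the C1q cluster. C1s1 and Nr1h3 were chosen after their values were seen. Some list members are not reported here. Older symbols were matched through RefSeq names. Promoter windows came from RefSeq (GRCm38.p6) and exon overlaps from GENCODE M21 on the same assembly. Alternatives were other size factors, filters and tests (DESeq2 1.42.0, limma-voom in limma 3.58.1), an adjusted p under 0.1, the replicate number as a block and each library left out in turn.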

Additional observations from a re-analysis of the deposited data

How the results depend on the processing

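The count of the 6 complement genes called was 0 under each of the 16 alternatives. The count of all genes called was 11, against 22 with DESeq2, 35 with the replicate block, 7 with Lyz2 left out of the counts (chosen after seeing the data) and 4 to 19 with 1 library left out (19 without control library 1, 4 without control library 2, 7 without control library 3). Same-numbered libraries were not taken as paired, since the sources used here do not say that the number marks a shared animal or day. Their deviations from the group means correlated at 0.14, 0.02 and 0.15 over all genes. With no mismatched pairs set beside them, these values cannot settle whether libraries were paired. The replicate block lowered the SE from 0.122 to 0.086 for C3 and from 0.118 to 0.081 for Cfb, and changed it less for Cfp and the C1q genes. With 1 library left out, log2 fold changes ran from -0.188 to 0.0415 for C3, -0.211 to 0.0187 for Cfb and -0.25 to -0.03 for Cfp. Other scalings, filters and tests and the replicate block moved no complement gene by more than its spread between libraries and reversed none. In the mature macrophage list, 1 gene (Cd163) was called with DESeq2 and with the replicate block, and 0 to 1 with 1 library left out (Axl, without control library 1). The summed C1q log2 ratio was -0.27, and -0.33 to -0.22 with 1 library left out. Without division by length, C3 came 2nd, C1qc 3rd, Cfp 4th and C1qa 5th. By Spearman rho, 3 of the 10 genes most like C1q were again in the first 10, but 12 genes tied at the highest rho, and the tie was broken by Pearson r. For Dhps itself the adjusted p was 0.033 with the replicate block, 0.0798 with DESeq2 and up to 0.660 with 1 library left out.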
